A study of Homo sapiens with 6 samples.

Results

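Cyclins and E2F factors are the switch genes of the cell division cycle, and 10 of them were followed in RT4 cells: the cyclin genes *CCND1*, *CCND3*, *CCNE1*, *CCNE2*, *CCNA2*, *CCNB1* and *CCNB2*, and the transcription factor genes *E2F1*, *E2F2* and *E2F8*. They were picked by gene symbol out of the 57905 genes of the deposited table. All 10 were among the 14178 genes with enough reads to be tested. RT4 is an established line from a human bladder tumour of the non-muscle invasive kind. The cells were wild type and received 100 pmol of siRNA for 48 h, either a universal negative control (Scramble) or an siRNA against *LEADR*, the spliced long non-coding transcript of *MIR205HG* (LEADR-KD). Poly(A) RNA was sequenced in 3 libraries per siRNA, numbered 1 to 3 within each group as in the labels. A single *LEADR* siRNA in a single line was used.

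Cyclins are the regulatory subunits of cyclin-dependent kinases (CDKs). D-type cyclins, with CDK4 and CDK6, begin the phosphorylation of the RB protein in G1, and E-type cyclins, with CDK2, complete it at the entry to S phase. RB then releases E2F factors, which switch on the genes of DNA synthesis and, among them, E-type cyclins and E2F genes themselves. Cyclin A acts through S and G2 phase and B-type cyclins drive mitosis with CDK1. Bladder tumours often carry lesions of this pathway.

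The oligonucleotide that defines the LEADR-KD group is shown first, because its seed was searched for in the cyclin and E2F transcripts. Bases 2 to 8 from the 5′ end are in capitals.

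*LEADR* siRNA: aACUGGGUgcuuuauauagga

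The libraries held 15706033 to 18960822 counted reads. *MIR205HG*, the targeted gene, had 22.7 ± 6.64 CPM in Scramble and 8.13 ± 3.08 CPM in LEADR-KD (mean ± SD, n = 3 each), a log2 fold change of -1.47 (SE 0.26, adjusted p = 0.00180). By library it had 30.1, 17.3 and 20.7 CPM in Scramble 1, 2 and 3 and 7.08, 11.6 and 5.72 CPM in LEADR-KD 1, 2 and 3. CPM is the read count relative to the library's size after scaling by trimmed means of M values (TMM), and every log2 fold change on counts and its adjusted p are from edgeR's quasi-likelihood test over all tested genes, positive where LEADR-KD was higher. Scramble 1 and LEADR-KD 1 stood apart by their mitochondrial share, at 11.9% and 10.8% of reads against 3.06% to 5.73% in the other 4 libraries. All 15 urothelial and epithelial markers were detected in each library, and their summed level was 7231 to 7978 CPM in Scramble and 8545 to 9160 CPM in LEADR-KD. Of the 14 tested, 2 rose, *CDH1* at a log2 fold change of 1.11 (adjusted p = 1.28e-05) and *KRT18* at 0.39 (adjusted p = 0.0297). The 1 that fell was *FOXA1*, at -0.30 (adjusted p = 0.0222). The *KRT18* call was lost in 7 of 17 alternative fits and the *FOXA1* call in 4. Markers of fibroblasts, leukocytes and endothelium summed to 36.6 to 39.2 CPM in Scramble and 23.3 to 28.3 CPM in LEADR-KD, with 4 to 6 of the 10 at 0, and of the 3 tested *VWF* fell (-1.16, adjusted p = 0.00553). The part of these shifts in the results was not tested. The study's methods call the libraries biological replicates, but the labels do not tie them to separate cultures, so part or all of the spread behind the p-values may be technical.

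In LEADR-KD 5 of the 10 cyclin and E2F transcripts rose, *CCND1*, *CCND3*, *CCNE2*, *E2F1* and *E2F2*, and the other 5 did not pass the test. No member fell by edgeR at an adjusted p under 0.05, nor at an unadjusted one, and DESeq2 and limma called 0 as well. Among all tested genes 12.2% were called higher and 12.1% lower. The median log2 fold change of the 10 genes was 0.32, beside -0.01 over all tested genes, and 9 of the 10 were above 0. In 8 of the 10, each LEADR-KD library lay above each Scramble library, a separation that 19.9% of all tested genes had. The same 5 genes passed when both libraries numbered 1 were left out. In bulk RNA more cells in one phase of the cycle and more transcript per cell cannot be told apart. In separate assays of RT4 cells, the study found no significant effect of *LEADR* knockdown on growth curves or EdU uptake. The growth curves were taken from cells reseeded 48 h after knockdown, so they cover a later time than this RNA. The study's own pathway analysis of its RNA data linked *LEADR*-repressed genes to homology directed repair and replication stress. Its discussion calls the enrichment of the DNA damage response not strongly significant.

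**Figure D1:**
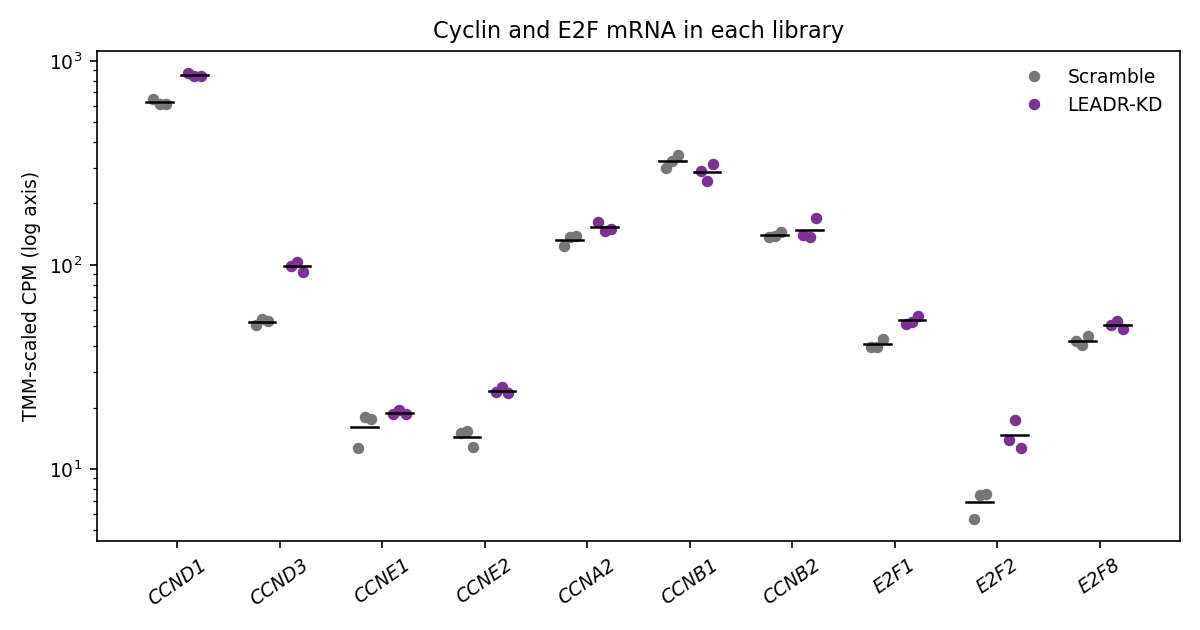
TMM-scaled CPM (log axis) of the 10 genes in the 3 Scramble (grey) and 3 LEADR-KD (purple) libraries, each point a library and each bar the group mean. *CCND3* and *E2F2* are the most widely separated, at means of 52.7 against 98.4 CPM and 6.91 against 14.7 CPM, while the groups overlap in *CCNB1* and *CCNB2*.

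**Figure D2:**
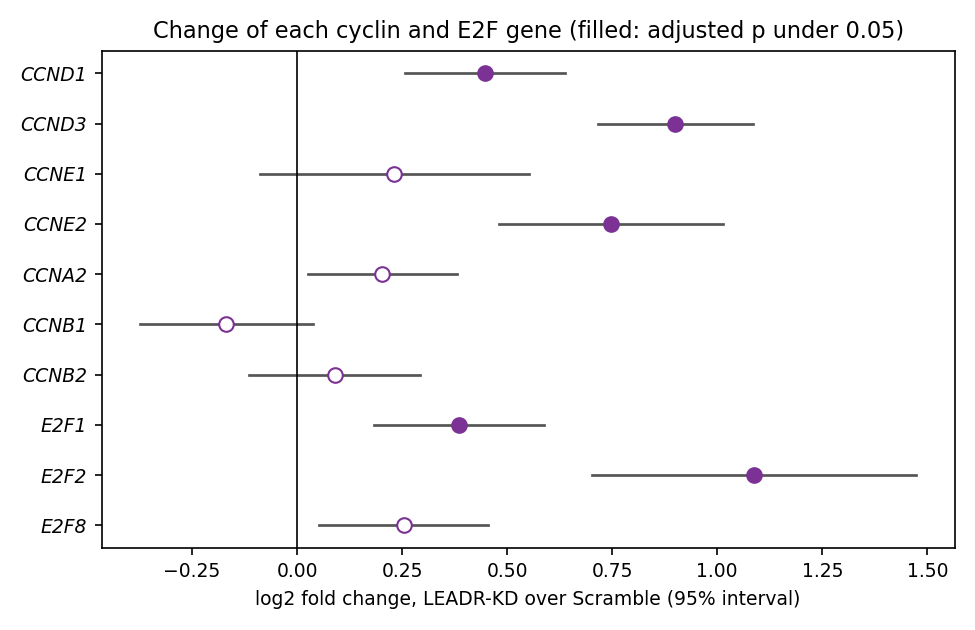
Log2 fold change of LEADR-KD over Scramble (x axis) for each gene, with its 95% interval from edgeR's quasi-likelihood fit. Filled points have an adjusted p under 0.05, and the estimates run from -0.17 (*CCNB1*) to 1.09 (*E2F2*).

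Both D-type members rose, with log2 fold changes of 0.90 for *CCND3* and 0.45 for *CCND1*. *CCND3* (ENSG00000112576, GRCh37 chromosome 6, 41902671 to 42018095, minus strand) encodes cyclin D3. It had 51.0, 54.3 and 53.0 CPM in Scramble 1, 2 and 3 and 98.8, 104 and 92.8 CPM in LEADR-KD 1, 2 and 3. The lowest LEADR-KD library was far above the highest Scramble library, and the log2 fold change was 0.90 (SE 0.084, 95% interval 0.72 to 1.08, adjusted p = 2.4e-05). *CCND1* (ENSG00000110092, chromosome 11, 69455855 to 69469242, plus strand) encodes cyclin D1, a well-known oncogene product. It had 649, 614 and 614 CPM in Scramble and 871, 843 and 845 CPM in LEADR-KD. The libraries of each siRNA lay close together and the groups did not overlap, with a log2 fold change of 0.45 (SE 0.087, 95% interval 0.26 to 0.64, adjusted p = 0.00335). Its exons share 497 bases with *LTO1* (*ORAOV1* in the files) on the opposite strand, which had 14.5 CPM in Scramble and 12.3 CPM in LEADR-KD (log2 fold change -0.23, adjusted p = 0.591). Whether the counting used the strand is not stated in any source used here, so reads of such pairs may not have been separated. *CCND2*, the remaining D-type cyclin gene, was rare in RT4 but also higher, at 1.99 ± 0.117 FPKM in Scramble and 3.66 ± 0.157 FPKM in LEADR-KD (log2 fold change of CPM 0.87, adjusted p = 2.89e-04). FPKM divides the reads by gene length and a library constant, so it allows genes to be compared. The length is a single value per gene and may differ from that of the transcripts expressed, so levels and ratios between genes are approximate.

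Set per length, cyclin D1 remained by far the most abundant D-type transcript. The 3 genes summed to 140 ± 3.99 FPKM in Scramble and 198 ± 3.85 FPKM in LEADR-KD. *CCND3* made up 7.04% ± 0.400 of that sum in Scramble and 9.34% ± 0.493 in LEADR-KD. Within a library the ratio of *CCND1* to *CCND3* FPKM was 14.0, 12.4 and 12.7 in Scramble and 9.68, 8.92 and 9.99 in LEADR-KD. The ratio was lower in each LEADR-KD library, by 0.45 on the mean log2 scale, and the exact two-sided permutation test gave p = 0.10, the smallest value that 3 against 3 libraries allow.

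Of the E-type cyclins, which hand over from G1 to S phase, *CCNE2* rose and *CCNE1* did not pass the test. *CCNE2* (ENSG00000175305) had 15.0, 15.4 and 12.8 CPM in Scramble and 23.9, 25.1 and 23.6 CPM in LEADR-KD. The groups were well apart, with a log2 fold change of 0.75 (SE 0.12, 95% interval 0.48 to 1.01, adjusted p = 0.00106). Its exons share 1629 bases with *INTS8* on the opposite strand. *INTS8* itself had 86.1 CPM in Scramble and 77.9 CPM in LEADR-KD (log2 fold change -0.15, adjusted p = 0.217) and did not pass the test. The part of *INTS8* reads in the *CCNE2* count was not tested. *CCNE1* (ENSG00000105173, chromosome 19, 30302805 to 30315215, plus strand) had 12.7, 18 and 17.5 CPM in Scramble and 18.5, 19.5 and 18.5 CPM in LEADR-KD. Scramble 1 was low and the other 2 Scramble libraries lay just under the LEADR-KD libraries. The log2 fold change of 0.23 (SE 0.15, 95% interval -0.09 to 0.55, adjusted p = 0.287) became 0.09 without Scramble 1. The FPKM ratio of *CCNE1* to *CCNE2* went from 1.46, 2.0 and 2.33 in Scramble to 1.33, 1.33 and 1.34 in LEADR-KD. Scramble 1 was again the nearest to the LEADR-KD libraries, which were nearly identical to each other, and the exact permutation p was 0.10.

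None of the 3 cyclin genes of S phase, G2 and mitosis passed the test. *CCNA2* (ENSG00000145386, chromosome 4, 122737599 to 122745087, minus strand), which encodes cyclin A2, had 124, 136 and 138 CPM in Scramble and 162, 146 and 151 CPM in LEADR-KD. Its exons share 254 bases with *EXOSC9* on the opposite strand (log2 fold change 0.07, adjusted p = 0.699). The *CCNA2* groups did not overlap, but the log2 fold change of 0.20 (SE 0.081, 95% interval 0.03 to 0.38) had an adjusted p of 0.0928, and without both libraries numbered 1 it was 0.11. *CCNB1* (ENSG00000134057, chromosome 5, 68462837 to 68474072, plus strand), which encodes cyclin B1, was the sole member with a negative estimate. It had 298, 322 and 344 CPM in Scramble and 289, 258 and 312 CPM in LEADR-KD, and LEADR-KD 3 lay inside the Scramble range (log2 fold change -0.17, SE 0.094, 95% interval -0.37 to 0.04, adjusted p = 0.226). *CCNB2* (ENSG00000157456, chromosome 15, 59397277 to 59417244, plus strand), which encodes cyclin B2, had 136, 139 and 145 CPM in Scramble and 141, 137 and 169 CPM in LEADR-KD. LEADR-KD 3 alone lay above the Scramble range, and the log2 fold change of 0.09 (SE 0.093, 95% interval -0.11 to 0.29, adjusted p = 0.537) was -0.01 without it. These intervals leave room for log2 changes of up to 0.38, and a p that missed the threshold does not show that these genes were unchanged.

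The balance of the 2 B-type cyclins can also be read within a library. Their FPKM ratio, *CCNB1* to *CCNB2*, was 1.56, 1.65 and 1.70 in Scramble and 1.47, 1.35 and 1.31 in LEADR-KD. Each LEADR-KD library was below each Scramble library, by 0.25 on the mean log2 scale, with an exact permutation p of 0.10, which is again the floor of the design.

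**Figure D3:**
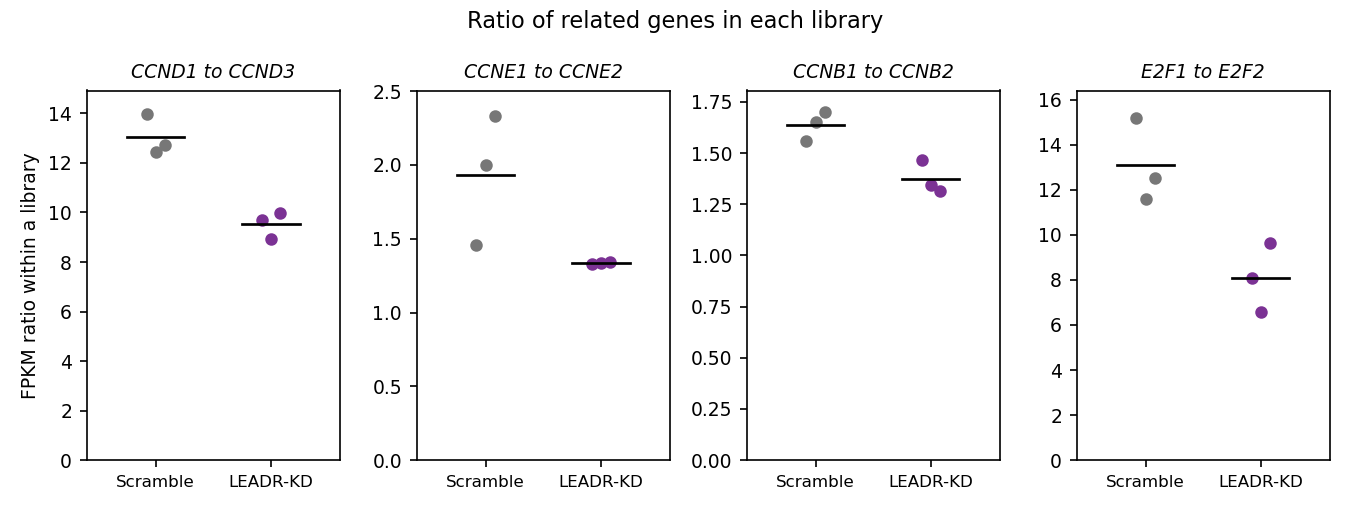
FPKM ratio of related genes within each library (linear axes from 0), where grey points are Scramble libraries, purple points are LEADR-KD libraries and bars are group means. In all 4 pairs each LEADR-KD point is below each Scramble point, with means of 13 against 9.53, 1.93 against 1.34, 1.64 against 1.37 and 13.1 against 8.11.

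The activator *E2F2* had the largest log2 fold change of the 10 genes and the lowest level. *E2F2* (ENSG00000007968, chromosome 1, 23832922 to 23857712, minus strand) rested on 97, 145 and 127 reads in Scramble and 222, 317 and 225 reads in LEADR-KD. These were 5.71, 7.44 and 7.58 CPM and 13.9, 17.4 and 12.7 CPM. The groups were wide apart relative to their own spread, with a log2 fold change of 1.09 (SE 0.18, 95% interval 0.70 to 1.47, adjusted p = 0.00105). *E2F1* (ENSG00000101412, chromosome 20, 32263489 to 32274210, minus strand), the first activator of the family, had 39.8, 39.6 and 43.6 CPM in Scramble and 51.6, 52.6 and 56.4 CPM in LEADR-KD. Here too the groups did not overlap, and the log2 fold change was 0.38 (SE 0.092, 95% interval 0.18 to 0.59, adjusted p = 0.0107). Scaling by library totals alone took its adjusted p to 0.0727. The *E2F1* to *E2F2* FPKM ratio was 15.2, 11.6 and 12.5 in Scramble and 8.08, 6.58 and 9.65 in LEADR-KD, lower in each LEADR-KD library (difference of -0.70 in mean log2, exact permutation p = 0.10). After adjustment over the 4 gene pairs each of these p-values was 0.10.

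*E2F8* (ENSG00000129173, chromosome 11, 19245610 to 19263167, minus strand) encodes an atypical E2F that represses target genes without a DP partner. It had 42.2, 40.6 and 44.8 CPM in Scramble and 50.7, 53.0 and 48.4 CPM in LEADR-KD. All 3 LEADR-KD libraries were above the Scramble libraries, but the log2 fold change of 0.25 (SE 0.092, 95% interval 0.05 to 0.45) had an adjusted p of 0.0658. It passed in 3 of the 17 alternatives, limma on log2(FPKM + 1) among them (adjusted p = 0.0466).

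The proximal promoters of the E2F genes and of the B-type cyclin genes are shown because *E2F1* and *E2F2* passed the test, *CCNB1* and *CCNB2* did not, and they are textbook targets of different elements. E2F sites serve G1/S genes, and CCAAT boxes with a cell cycle homology region (CHR) serve G2/M genes. The windows run from 250 bases before to 50 bases after the RefSeq start (GRCh38.p14, 5′ to 3′ on the gene's strand). In the first pair, capitals mark an E2F motif, searched as TTTCCCGC, TTTGGCGC, TTTCGCGC or TTTGCCGC on both strands. In the second pair they mark CCAAT, or a CHR searched as TTTGAA or TTCGAA, again on both strands.

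*E2F1*, chr20:33686336-33686635, minus strand: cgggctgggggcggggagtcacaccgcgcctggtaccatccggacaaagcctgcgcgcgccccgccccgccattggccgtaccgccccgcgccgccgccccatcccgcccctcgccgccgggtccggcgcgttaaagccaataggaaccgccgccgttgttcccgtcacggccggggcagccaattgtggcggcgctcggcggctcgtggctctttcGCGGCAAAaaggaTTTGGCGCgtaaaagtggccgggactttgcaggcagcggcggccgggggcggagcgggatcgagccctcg

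*E2F2*, chr1:23531184-23531483, minus strand: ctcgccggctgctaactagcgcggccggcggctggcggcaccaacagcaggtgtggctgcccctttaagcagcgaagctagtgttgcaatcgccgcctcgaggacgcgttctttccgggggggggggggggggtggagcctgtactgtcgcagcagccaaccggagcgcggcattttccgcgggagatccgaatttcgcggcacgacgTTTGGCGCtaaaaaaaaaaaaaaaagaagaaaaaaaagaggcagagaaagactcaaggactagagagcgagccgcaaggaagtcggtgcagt

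*CCNB1*, chr5:69166900-69167199, plus strand: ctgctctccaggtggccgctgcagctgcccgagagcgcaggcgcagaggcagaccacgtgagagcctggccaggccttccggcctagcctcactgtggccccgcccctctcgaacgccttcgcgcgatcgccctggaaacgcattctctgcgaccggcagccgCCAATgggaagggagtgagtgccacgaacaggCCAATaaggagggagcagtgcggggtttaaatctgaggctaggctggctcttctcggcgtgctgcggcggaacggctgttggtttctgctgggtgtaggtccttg

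*CCNB2*, chr15:59104896-59105195, plus strand: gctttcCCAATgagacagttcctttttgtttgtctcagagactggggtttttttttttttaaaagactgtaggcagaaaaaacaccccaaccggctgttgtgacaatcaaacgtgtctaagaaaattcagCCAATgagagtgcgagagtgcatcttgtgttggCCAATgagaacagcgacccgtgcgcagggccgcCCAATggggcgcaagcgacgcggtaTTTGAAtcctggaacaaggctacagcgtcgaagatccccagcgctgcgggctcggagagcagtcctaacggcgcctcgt

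*E2F1* held TTTGCCGC on the reverse strand at -33 to -26 and TTTGGCGC at -20 to -13 from the start, and *E2F2* held TTTGGCGC at -42 to -35. *E2F1* and *E2F2* were the 2 of 7 members with such a match. Both rose, and so did *CCND3*, which had no such match in any of its windows. Counted by window, since *CCND3* has 3 alternative starts, 2 of 9 windows held it, beside 3.31% of the 35116 RefSeq promoters of this length. *CCNB2* held the single CHR match among the members, at -29 to -24, beside 4 CCAAT boxes, and *CCNB1* held 2 CCAAT boxes. CCAAT was found in *CCNA2*, *CCNB1*, *CCNB2*, *CCND3* and *E2F1*, in 6 of the 9 windows and in 34.6% of all promoters. A CHR match was in 1 of the 9 windows and in 16.4% of all promoters. Other spellings of the CHR and of the E2F motif were not searched, so a window without a match may still hold either. The promoters of *CCND1*, *CCNE2* and *E2F8* were not analysed here. A match is a description of letters and not of a bound site.

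The siRNA seeds, taken as bases 2 to 8 of the listed strand and of its full complement, had no match in the members. Which strand is the guide, and where each strand of the duplex begins, was not established here. Neither ACCCAGT, the site for the listed strand, nor ATATAGG, the site for its complement, occurred in the canonical 3′ untranslated region of any of the 10 genes. Among 12080 tested genes with such a region, 11.8% held the first and 7.90% the second. Of 13 lower genes named from the cell cycle lists below, 2 held the first (*CCNJL* and *NEK2*) and 2 the second (*RBL2* and *SKP2*). Of 23 higher genes named from those lists, 0 held either. Whether these matches had a part in the changes was not tested.

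The order of levels per length placed *CCND1* and the mitotic cyclins on top. In Scramble *CCND1* (128 ± 4.14 FPKM) and *CCNB1* (124 ± 8.88 FPKM) overlapped, followed by *CCNB2* at 75.9, *CCNA2* at 47.0 and *E2F1* at 16.2 FPKM. *E2F8* at 10.2 and *CCND3* at 9.85 FPKM overlapped, and *CCNE1* at 6.19, *CCNE2* at 3.24 and *E2F2* at 1.25 FPKM were the lowest. In LEADR-KD *CCND1* stood alone at 176 FPKM above *CCNB1* at 112 FPKM, and *CCND3* at 18.5 FPKM had passed *E2F8* at 12.2 FPKM. No neighbours overlapped in LEADR-KD, where *CCNB2* was at 81.4, *CCNA2* at 54.5, *E2F1* at 21.3, *CCNE1* at 7.33, *CCNE2* at 5.48 and *E2F2* at 2.69 FPKM.

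Most G1/S genes under E2F control rose. Of 55 such genes, 45 passed upwards, 1 fell and 9 did not pass, with a median log2 fold change of 0.40. Among all tested genes 12.2% were called higher and 12.1% lower, and these shares stand beside each list below too. All of the lists were chosen with earlier results of these data known. *CDC6* (1.00) and *CDT1* (0.83), which license replication origins, *RFC4* (0.86), a subunit of the clamp loader, and *DSCC1* (0.78), of an alternative clamp loader, rose most. *UNG*, a uracil-DNA glycosylase, was the exception at -0.39. The number that rose was 31 to 48 over the alternatives.

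Most G2 and mitosis genes, like *CCNB1* and *CCNB2*, did not pass, but neither did most of all tested genes. Of 44, 11 rose, 3 fell and 30 did not pass, with a median of 0.09. Over all tested genes 12.2% were called higher and 12.1% lower. The spindle motor gene *KIF11* (0.94), the spindle factor gene *TPX2* (0.39), the kinetochore gene *NDC80* (0.37) and *CDK1* (0.32) rose most. *FOXM1* (-0.86), *CDCA8* (-0.72), of the chromosomal passenger complex, and the centrosome kinase gene *NEK2* (-0.64) fell. The count of 11 was 5 without Scramble 1, 7 without Scramble 2, Scramble 3 or LEADR-KD 2, 4 without LEADR-KD 3, 5 without both libraries numbered 1, and 2 under library totals. The difference between the G1/S and the G2 and mitosis lists was not tested.

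**Figure D4:**
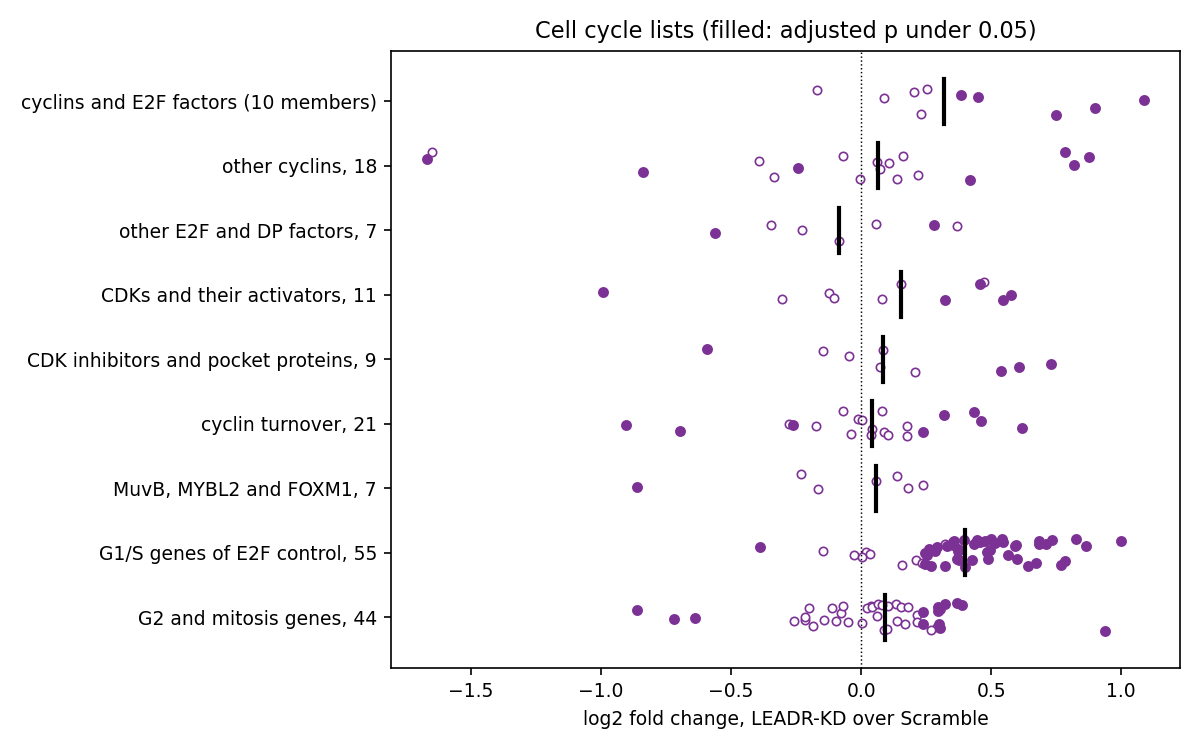
Log2 fold change of LEADR-KD over Scramble (x axis) for each tested gene of the 10 members and of 8 lists of cell cycle genes, with the number tested beside each name. Filled points have an adjusted p under 0.05 and bars mark medians, which are 0.32 for the members, 0.40 for the G1/S genes and 0.09 for the G2 and mitosis genes.

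*FOXM1*, a transcription factor gene whose product activates B-type cyclin genes, fell from 270 ± 20.0 to 149 ± 2.64 CPM (adjusted p = 2.59e-05). It was the 1 of 7 genes of the MuvB complex, *MYBL2* and *FOXM1* that passed. None of the 7 rose by edgeR, at an adjusted or an unadjusted p under 0.05, nor by DESeq2 or limma.

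Other cyclins were mixed. Of 18 tested, 4 rose, 3 fell and 11 did not pass (median 0.07). *CCND2*, *CCNJ* (0.82), *CCNYL1* (0.78) and *CCNC* (0.42), which encodes a Mediator cyclin, rose. *CCNG2* (-1.67), whose product is linked to cell cycle arrest, *CCNJL* (-0.84) and *CCNK* (-0.24), which encodes a partner of transcriptional CDKs, fell. The *CCNK* call was lost in 15 of 17 alternatives and the *CCNC* call in 6. Of 7 other E2F and DP genes, *E2F3* (0.28) rose and *E2F6* (-0.56), which encodes a repressor, fell (median -0.09). The *E2F3* call was lost whichever single library was left out.

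Some of the kinases that these cyclins bind rose. *CDK2* (0.58), *CDK4* (0.46) and *CDK1* (0.32) and the activating phosphatase gene *CDC25A* (0.54) rose, the related *CDC25B* fell (-0.99), and 6 of the 11 CDK and activator genes did not pass (median 0.15). The *CDK1* call was lost without Scramble 1, LEADR-KD 2 or LEADR-KD 3, with adjusted p-values of 0.0600, 0.0511 and 0.0759. Among 9 tested CDK inhibitors and pocket proteins (median 0.09), *PKMYT1* (0.73), which encodes an inhibitory kinase of CDK1, *RBL1* (0.61), for the pocket protein p107, and *CDKN2C* (0.54), for a CDK4 and CDK6 inhibitor, rose. *RBL2*, for the pocket protein p130, fell (-0.59). *CDKN2A*, whose product p16 restrains CDK4 and CDK6, had 0 reads in all 6 libraries.

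Genes of cyclin turnover were divided too. Of 21, 5 rose, 3 fell and 13 did not pass (median 0.04). *CDC23* (0.62) and *ANAPC4* (0.44), of the anaphase-promoting complex, *FBXO5* (0.46), for its inhibitor EMI1, and *CUL1* (0.32), a cullin scaffold, rose most. *SKP2* (-0.91) and *FBXW7* (-0.70), the latter for the F-box protein that directs cyclin E to degradation, and *ANAPC5* (-0.26) fell. The *CDC23*, *SKP2* and *FBXW7* calls held with any 1 library left out. The *ANAPC5* and *FBXO5* calls were lost in 10 of 17 alternatives each, *CUL1* in 7 and *ANAPC4* in 6, each of them with 4 or 5 of the single libraries left out. The count of 5 that rose was 2 without Scramble 1, 3 without Scramble 2 or LEADR-KD 1, and 1 without Scramble 3, LEADR-KD 2 or LEADR-KD 3.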

How the data were processed

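Poly(A) RNA of RT4 cells was measured in 3 Scramble and 3 LEADR-KD libraries, grouped by the labels. The deposited counts are raw reads per gene. HISAT2 2.0.5, featureCounts 1.5.0-p3 and hg19 are listed in the submitters' processing notes, whereas the study's methods name Salmon. Whether counting used the strand is not stated in any source used here. The FPKM values are the authors' counts divided by gene length and 1 constant per library. A deposited table of the authors' DESeq2 comparison (fold changes and p-values) was not used.

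Counts were scaled by TMM, filtered with filterByExpr (minimum count 10) and compared with edgeR 4.0.16 (R 4.3.3) by the quasi-likelihood test without covariates. Of 57905 genes, 25957 had a count and 14178 were tested. The threshold for a call was 0.05 on the adjusted p (Benjamini-Hochberg over all tested genes). The standard error is the fold change divided by the root of F. The biological coefficient of variation was 12.6%. Simulated counts of 13988 genes with 50 changed genes per fold were recovered in 14% of cases at a fold of 1.25, 56% at 1.5, 80% at 2 and 98% at 4, with 9 false calls. The simulation took its spread from the fitted trend and held far fewer changed genes than the 1736 higher and 1719 lower called here. The adjusted threshold is less strict with more changed genes, so these rates need not hold for the real comparison. FPKM ratios were compared by an exact two-sided permutation test, adjusted over 4 pairs.

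The members and lists were chosen with earlier results of these data known. The lists come from general knowledge and overlap in part: 8 genes of the G2 and mitosis list are in another list. Named are all members, *MIR205HG* and, per list and direction, up to 4 called genes of largest change. *CDH1*, *KRT18*, *FOXA1* and *VWF*, from the marker lists, were named after their values were seen. Also named are the 3 genes most like each of 2 mean patterns. Genes that share over 100 exon bases with a member were named for that overlap (the other 3 overlaps were of 4 to 24 bases), and *CDKN2A* was singled out after its values were seen. Promoter windows are those of RefSeq (GRCh38.p14), with 7 of 10 members matched. Untranslated regions are GENCODE's on GRCh37, 1 canonical transcript per gene. Alternatives were DESeq2 1.42.0, its size factors, library totals, no mitochondrial genes, no filter or a mean of at least 1 CPM, each library left out, both libraries numbered 1 left out, a replicate block, and limma 3.58.1 on log2(FPKM + 1) or log2(FPKM + 0.1) with a mean FPKM of at least 0.5, or without that filter.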

Additional observations from a re-analysis of the deposited data

How the results depend on the processing

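The calls of *CCND1*, *CCND3*, *CCNE2* and *E2F2* held in all 17 alternatives and that of *E2F1* in 16. The number of members higher in LEADR-KD was 4 with library totals and 7 with a replicate block, and the number lower was 0 in each. *CCNB2* turned to -0.012 without LEADR-KD 3, and leaving out 1 library at a time gave -0.012 to 0.15. Over all tested genes, 1736 were higher and 1719 lower. With library totals 1085 were higher, and with limma on log2(FPKM + 1) without a filter 915 were higher and 854 lower. The cause was not tested. Leaving out 1 library gave 1142 to 1472 lower genes, the lowest without LEADR-KD 2, where fewer samples enter. Libraries with the same number correlated at 0.227, 0.000580 and 0.266 in their deviations from the group means. Those with different numbers correlated at -0.296 to 0.0755, the highest being LEADR-KD 2 with Scramble 3. The labels do not say that equal numbers mark pairs, so the main fit did not pair the samples. Whether a number marks a shared batch was not tested. The replicate block gave 2489 higher and 2365 lower genes, and added *CCNA2* (adjusted p = 0.0427) and *E2F8* (adjusted p = 0.0292) among the members. The lowest gene, *E2F2*, rests on 97 to 317 reads a library.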

Other observations

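The mean standardised log2 CPM of *CCNA2*, *CCNB1* and *CCNB2* was -0.77, -0.09 and 0.33 across the Scramble libraries 1 to 3. In the same order the LEADR-KD libraries had 0.22, -0.66 and 0.96. Scramble 1 and LEADR-KD 2 were low and LEADR-KD 3 was high, and the groups overlapped in this mean although they did not in *CCNA2* alone. The tested protein-coding genes nearest to this pattern over the 6 libraries were *MTPAP*, a mitochondrial poly(A) polymerase gene (Pearson r = 0.986), *ALDH18A1*, of proline synthesis (0.976), and *MGST1*, a microsomal glutathione transferase gene (0.969). These are the highest of many genes over 6 points and are given as a description.

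For the mean of *CCNE1*, *CCNE2*, *E2F1*, *E2F2* and *E2F8* the values were -1.19, -0.69 and -0.53 in Scramble and 0.71, 1.02 and 0.68 in LEADR-KD. Each of these genes was by itself higher in every LEADR-KD library than in any Scramble library, so their mean could not overlap and adds nothing to that. The nearest genes were *MAPKAPK2*, a stress kinase gene (r = 0.997, log2 fold change 0.79), *MCM7*, of the replicative helicase (r = 0.997, log2 fold change 0.24), and *ELFN2* (r = 0.997, log2 fold change 1.87). Both groups enter these correlations, so a gene that differs between the siRNAs scores high.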
